A study of Homo sapiens with 12 samples.

Results

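Receptor genes of the ERBB, PDGF, FGF, AXL and MET families were followed in 4 human synovial sarcoma (SS) cell lines upon treatment with ZSTK474, an inhibitor of class I phosphatidylinositol 3-kinases (PI3K). The genes were EGFR, ERBB2, ERBB3, PDGFRA, PDGFRB, FGFR1, FGFR2, FGFR4, AXL and MET, that is 10 of the 19775 genes with a probe set of their own on the array. A probe set is a group of short DNA probes that report on a transcript, and every probe set annotated with exactly 1 of these symbols was taken, which gave 50 of 54675 probe sets. Their expression was measured on 12 Affymetrix U133 Plus 2.0 arrays, 1 for each cell line and dose. Yamato-SS, Aska-SS, Fuji and SYO-1 cells were exposed for 24 h to vehicle (0 µM), to 0.3 µM or to 3 µM of the inhibitor. All lines were grown in the same serum-containing medium. Each cell line was measured once at each dose and no label names repeated cultures, which leaves the 4 lines as the only replicates of a dose. A p-value for a dose measures how uniformly single arrays of these 4 cell lines moved. The p-value of a difference between lines compares means over the 3 doses. There the arrays of a line at different doses stand in for repeats. Neither p-value covers culture-to-culture spread within a line. A difference between the lines in their response to a dose could not be tested.

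Receptor tyrosine kinases (RTKs) bind growth factors outside the cell, pair up and phosphorylate each other on tyrosines inside it. Adaptor proteins and PI3K dock onto those phosphotyrosines, and PI3K then produces the membrane lipid that activates AKT. In many cell types the PI3K/AKT pathway in turn restrains transcription of some receptor genes, in part by keeping FOXO transcription factors out of the nucleus. PDGFRA, FGFR2, EGFR, AXL and MET are among the receptors studied in sarcomas, and the SS tumor type carries an SS18-SSX fusion oncogene.

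Signals are MAS5 intensities in arbitrary units after quantile normalization, and changes are differences of their log2 values. A signal below 12.1, the 20th percentile, was set to that floor before the log. Of the 50 receptor probe sets, 27 had a mean log2 signal above the median of all probe sets (6.03, a signal of 65.1) and were tested among 27306. These were 6 of 9 for EGFR, 2 of 3 for ERBB2, 2 of 4 for PDGFRA, 7 of 7 for FGFR1, 3 of 11 for FGFR2, 1 of 4 for FGFR4, 2 of 2 for AXL and 4 of 4 for MET, against 0 of 5 for ERBB3 and 0 of 1 for PDGFRB. The brightest probe set stood for its gene. Because probes differ in affinity, levels were compared between cell lines for the same probe set and never between genes. Each array was made from RNA of a whole culture, so fewer cells with a transcript and less transcript per cell cannot be told apart.

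Marker genes were read first as a check of the labels. Of 5 tested SS markers, TLE1, a corepressor used in SS diagnosis, had signals of 7260.2 to 24076 on the 12 arrays. At 3 µM 2 of the 5 rose and 0 fell, against 19.6% and 19.8% of all probe sets tested. Those that rose were TLE1 (0.29 ± 0.10 (SE) log2 units, limma adjusted p = 0.0318) and the tumor antigen gene PRAME (0.47 ± 0.10 (SE), adjusted p = 0.00278). SSX1 changed by -0.12 ± 0.10 (SE) (adjusted p = 0.411) and the antiapoptotic gene BCL2 by 0.10 ± 0.19 (SE) (adjusted p = 0.698). Of the markers of leukocytes (3 genes with a probe set), muscle (2) and endothelium (3), all stayed below the filter except PECAM1, which changed by -0.22 ± 0.23 (SE) at 3 µM (adjusted p = 0.469). The 2% trimmed mean was 500.1 on every array. The 3'/5' ratio of the actin control probe sets, a sign of RNA integrity that rises as RNA shortens, exceeded its 0 µM value at 3 µM in each line, by 0.59 on the log2 scale in Fuji and by 0.12 to 0.21 in the other 3 lines, while that of GAPDH differed by -0.13 to 0.15. The part of this difference in the changes given for receptor genes was not tested.

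At 3 µM, PDGFRA, AXL and EGFR rose, FGFR4 fell, and FGFR2 rose by a smaller amount that rested on Aska-SS. Counted by probe set, 9 of the 27 tested were called at an adjusted p under 0.05, 8 higher and 1 lower. By the probe set that stood for the gene, 5 of 8 genes were called, against 5304 of 12132 genes in a fit with 1 probe set per gene. Across the array, 39.4% of the 27306 probe sets were called at 3 µM, 19.6% higher and 19.8% lower, so that the receptor share of 9 in 27 was no more than that of the array. The median log2 change of the 8 gene-standing probe sets was 0.35, against 0.00 over all probe sets tested, which include dimmer probe sets of the same genes. At 0.3 µM 2 of 27 were called, PDGFRA and FGFR4, against 5.32% of the array, and between 0.3 and 3 µM 3 of 27 were called, 2 for EGFR and 1 for AXL, against 11.5%. Without the filter on dim probe sets, or without the trend in the variance, 0 receptor probe sets were called at 0.3 µM or for the step, and 0 were called at any dose when the cell line block was dropped.

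**Figure D1:**
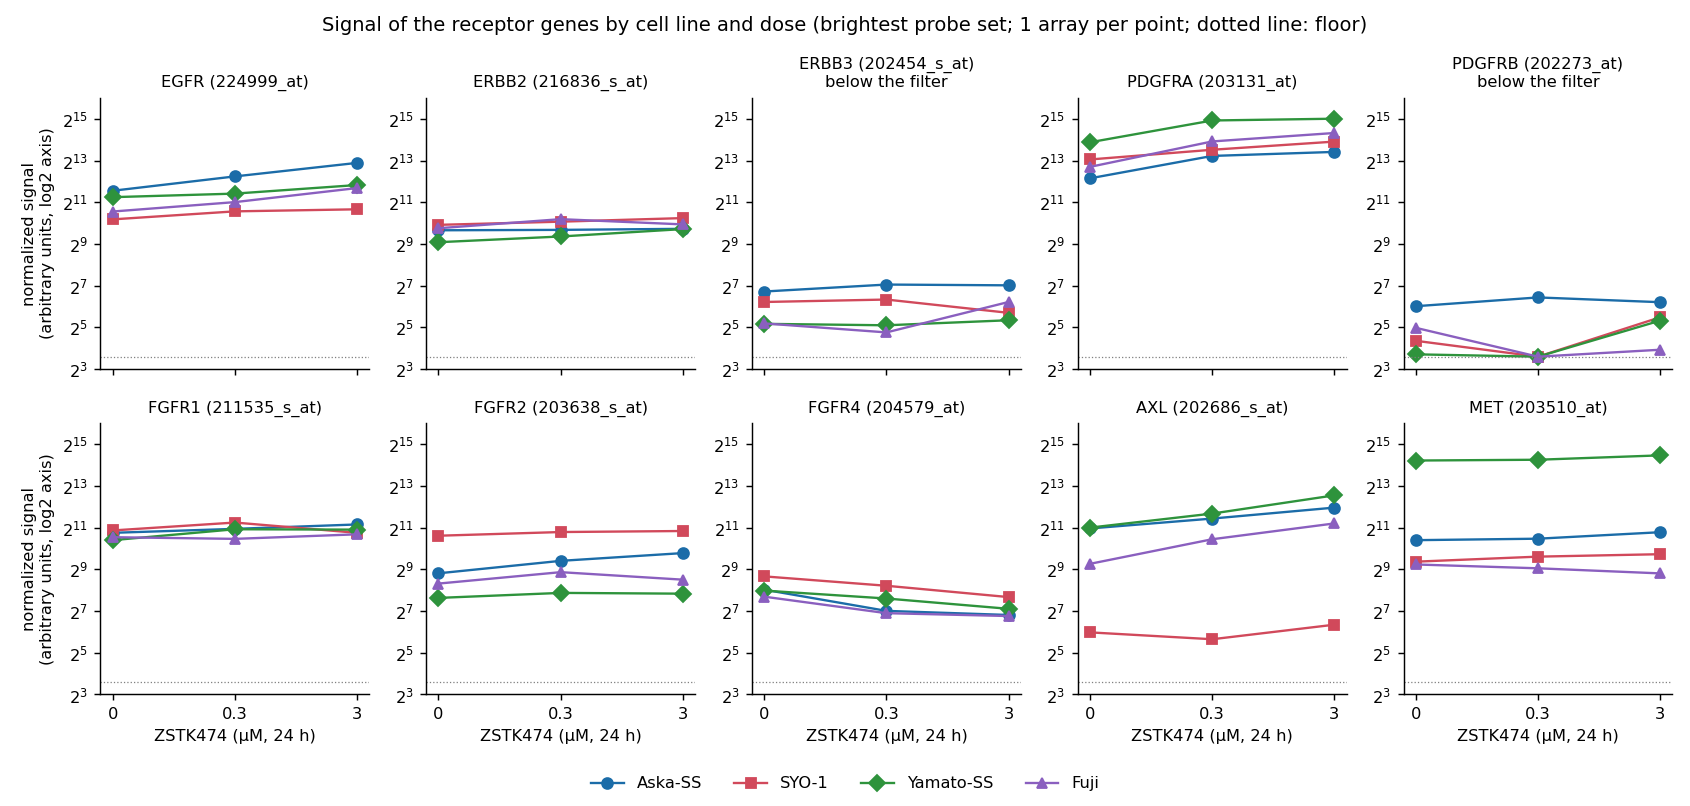
Normalized signal (arbitrary units, log2 axis) of the brightest probe set of each of the 10 receptor genes against the ZSTK474 dose, with 1 array per point and 1 coloured line per cell line. PDGFRA and EGFR were higher at 3 µM than at 0 µM in all 4 lines and FGFR4 lower, while AXL in SYO-1 and MET in Yamato-SS stood apart from the other lines at every dose.

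PDGFRA encodes the receptor for the A, B and C chains of platelet-derived growth factor. Its signal (probe set 203131_at) at 0, 0.3 and 3 µM was 15018, 30977 and 32873 in Yamato-SS, 4535, 9542 and 10906 in Aska-SS, 6635, 15445 and 20447 in Fuji and 8483, 11713 and 15362 in SYO-1. Each line was highest at 3 µM and lowest at 0 µM. The log2 change at 3 µM was 1.13 in Yamato-SS, 1.27 in Aska-SS, 1.62 in Fuji and 0.86 in SYO-1, with a mean of 1.22 ± 0.11 (SE), or 2.33-fold (limma, adjusted p = 1.47e-05). Most of the rise was already present at 0.3 µM (0.95 ± 0.11 (SE), 1.93-fold, adjusted p = 0.00653), whereas the step from 0.3 to 3 µM was 0.27 ± 0.11 (SE) (adjusted p = 0.137). The call at 0.3 µM was lost when Aska-SS was left out (0.91, adjusted p = 0.0883), although all 3 remaining lines were higher. PDGFRA was also expressed at unequal levels. Yamato-SS had the highest mean over the 3 doses, above Fuji by 0.96 ± 0.13 (SE) log2 units, 1.94-fold, limma adjusted p = 4.30e-05. At 0 µM alone SYO-1 (8483) was above Fuji (6635). Fuji and SYO-1 did not differ beyond their spread (adjusted p = 0.369), and Aska-SS was lowest, below SYO-1 by 0.56 ± 0.13 (SE) log2 units, 1.48-fold, limma adjusted p = 0.00257.

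A second PDGFRA probe set (215305_at) gave another picture. Its signal at 0, 0.3 and 3 µM was 1129, 1969 and 3214 in Yamato-SS, 160.3, 112 and 136 in Aska-SS, 287, 385 and 352 in Fuji and 493, 302 and 434 in SYO-1. It was higher at both doses than at 0 µM in Yamato-SS and Fuji and lower at both in Aska-SS and SYO-1, and its change of 0.35 ± 0.25 (SE) at 3 µM was not called (95% interval -0.21 to 0.90, adjusted p = 0.308). Both probe sets had their highest signals in Yamato-SS. There the bright probe set was near the top of the scale at 0.3 and 3 µM, with 143 and 118 of 54613 probe sets brighter, and its step between these doses was 0.09, while that of 215305_at was 0.71. Compression of the highest signals was not tested. The other 2 PDGFRA probe sets lay below the filter. PDGFRB, the receptor mainly for the B and D chains, was dim on its only probe set, with signals of 64.7, 86.7 and 74.0 at 0, 0.3 and 3 µM in Aska-SS and 3.85 to 44.9 on the other 9 arrays, 3 of the 12 at the floor.

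AXL encodes a receptor for the vitamin K-dependent ligand GAS6, and it is often raised in tumor cells under drug treatment. The AXL signal (probe set 202686_s_at) at 0, 0.3 and 3 µM was 2046, 3262 and 5978 in Yamato-SS, 1989.6, 2764 and 3978 in Aska-SS, 614, 1391 and 2351 in Fuji and 63.0, 50.1 and 81.3 in SYO-1. The 3 lines with a bright signal were all highest at 3 µM and did not overlap with SYO-1 at any dose. The change at 3 µM was 1.55 in Yamato-SS, 1.0 in Aska-SS, 1.94 in Fuji and 0.37 in SYO-1, with a mean of 1.21 ± 0.21 (SE) (2.32-fold, limma adjusted p = 7.15e-04). The smallest change was that of SYO-1, where the 3 signals lay near the filter, and without SYO-1 the mean change was 1.5 (adjusted p = 3.17e-04). At 0.3 µM the change of 0.50 ± 0.21 (SE) was not called (adjusted p = 0.166), being positive in 3 lines and -0.33 in SYO-1. The step from 0.3 to 3 µM was 0.71 ± 0.21 (SE) (adjusted p = 0.0454). That call was lost without Aska-SS (0.78, adjusted p = 0.129), without Yamato-SS (0.66, adjusted p = 0.155) or without Fuji (0.70, adjusted p = 0.0549).

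The cell lines differed widely in AXL, by their means over the 3 doses. At 0 µM alone, Yamato-SS had 2046, Aska-SS 1989.6, Fuji 614 and SYO-1 63.0. Yamato-SS and Aska-SS did not differ beyond their spread (adjusted p = 0.33), Aska-SS was above Fuji by 1.15 ± 0.24 (SE) log2 units, 2.22-fold, limma adjusted p = 0.00213, and Fuji was above SYO-1 by 4.31 ± 0.24 (SE) log2 units, limma adjusted p = 2.60e-08. The SYO-1 mean of 5.99 lay below the filter of 6.03, where part of the signal can be background, so no fold is given for that pair. The dimmer AXL probe set (202685_s_at) was again highest in Yamato-SS, at 249, 348 and 540.0 for 0, 0.3 and 3 µM, whereas Fuji had 27.8, 104 and 166 and SYO-1 43.2, 33.4 and 15.1, so that these lines overlapped at 0 µM. Its change of 0.77 ± 0.47 (SE) at 3 µM was not called (95% interval -0.26 to 1.79, adjusted p = 0.219), with 3 lines higher and SYO-1 lower.

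EGFR encodes the receptor for EGF, TGF-alpha, HB-EGF and related ligands. The EGFR signal (probe set 224999_at) at 0, 0.3 and 3 µM was 2424, 2729 and 3629.6 in Yamato-SS, 2999.8, 4833 and 7575 in Aska-SS, 1505, 2057 and 3283 in Fuji and 1159, 1513 and 1620.0 in SYO-1. It followed the dose in every line. The log2 change at 3 µM was 0.58 in Yamato-SS, 1.34 in Aska-SS, 1.13 in Fuji and 0.48 in SYO-1, larger in Aska-SS and Fuji than in SYO-1 and Yamato-SS, and the mean was 0.88 ± 0.13 (SE) (1.84-fold, limma adjusted p = 2.52e-04). At 0.3 µM the change of 0.42 ± 0.13 (SE) was positive in all 4 lines and not called (adjusted p = 0.0743). The step from 0.3 to 3 µM was 0.46 ± 0.13 (SE) (adjusted p = 0.0395), a call that was lost without any 1 of the 4 lines (0.39 to 0.58, adjusted p of 0.0504 without SYO-1 to 0.136 without Fuji). All neighbours in the order of means over the 3 doses differed: Aska-SS was above Yamato-SS (adjusted p = 0.00114), Yamato-SS above Fuji (1.33-fold, adjusted p = 0.0336) and Fuji above SYO-1 (adjusted p = 0.00553). The order at 0 µM alone was the same. Below Aska-SS this order depended on the probe set. It was the same on 210984_x_at and 211607_x_at. On 201983_s_at the mean log2 signal over the doses was 10.94 in Fuji and 10.85 in Yamato-SS. On 201984_s_at it was 10.58 in Fuji, 9.86 in SYO-1 and 9.85 in Yamato-SS. On 211551_at a difference among the lines was not called (F test, adjusted p = 0.431).

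Of the other 5 EGFR probe sets tested, 3 were also called higher at 3 µM, 201983_s_at by 0.86 ± 0.11 (SE) (adjusted p = 1.21e-04), 201984_s_at by 0.55 ± 0.14 (SE) (adjusted p = 0.00803) and 210984_x_at by 0.47 ± 0.17 (SE) (adjusted p = 0.0435). In 210984_x_at SYO-1 had 134, 117 and 128 at 0, 0.3 and 3 µM, so that 3 of 4 lines were higher. Probe set 211607_x_at changed by 0.39 ± 0.17 (SE) (adjusted p = 0.0937). The dimmest, 211551_at, with signals of 39.5 to 120.1, ran the other way in all 4 lines at -0.49 ± 0.29 (SE) and was not called (adjusted p = 0.208). Averaged over all its probe sets EGFR changed by 0.07 at 3 µM (adjusted p = 0.721), so the call rests on the bright probe sets. A suffix of _x_at marks a probe set that may also bind other transcripts.

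The remaining ERBB receptors moved less. ERBB2, which has no ligand of its own and pairs with the other ERBB receptors, had signals (probe set 216836_s_at) of 543, 657 and 839.8 in Yamato-SS, 807, 818 and 847 in Aska-SS, 864, 1167 and 981 in Fuji and 967, 1074 and 1209.7 in SYO-1 at 0, 0.3 and 3 µM. The 3 µM array was above the 0 µM array in all 4 lines, by 0.30 ± 0.12 (SE) on average (95% interval 0.04 to 0.56, limma adjusted p = 0.0625), which missed the threshold. No 2 neighbouring lines in the order SYO-1, Fuji, Aska-SS and Yamato-SS differed beyond their spread (adjusted p of 0.0824 to 0.547), although the 4 lines together did (F test, adjusted p = 0.00253). The second ERBB2 probe set, 210930_s_at, was lower in all 4 lines, by -0.32 ± 0.22 (SE) (adjusted p = 0.271), so the 2 probe sets had opposite signs and neither was called. ERBB3, a receptor with little kinase activity of its own that binds neuregulins and docks PI3K directly, lay below the filter on all 5 probe sets. The brightest one had 36.0, 34.4 and 40.6 in Yamato-SS, 106, 132.9 and 129.6 in Aska-SS, 36.6, 27.1 and 74.6 in Fuji and 74.5, 80.8 and 51.9 in SYO-1 at 0, 0.3 and 3 µM, and Aska-SS was above the other 3 lines on every array. The dimmer ERBB3 probe sets did not all share this order. Aska-SS had the highest mean log2 signal on 226213_at (7.29) and the lowest on 215638_at (5.04).

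**Figure D2:**
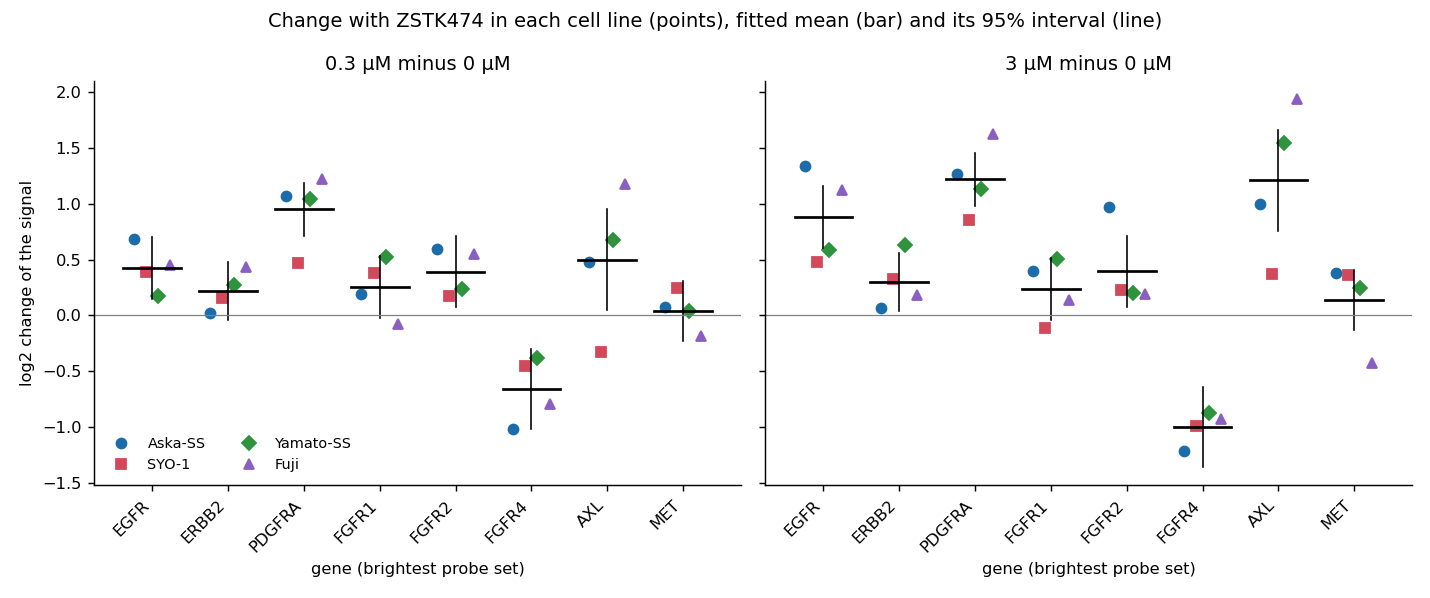
Log2 change of the signal at 0.3 µM (left) and 3 µM (right) against 0 µM for the brightest probe set of the 8 genes tested, with a point per cell line, a horizontal bar for the fitted mean and a vertical line for its 95% interval. At 3 µM all 4 lines were above 0 for PDGFRA, EGFR, AXL, ERBB2 and FGFR2, all 4 were below 0 for FGFR4, and Fuji was the 1 line below 0 for MET.

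FGFR4 was the only one of the 8 tested genes to fall. It encodes an FGF receptor with a prominent role in liver and in embryonic muscle. Its signal (probe set 204579_at) at 0, 0.3 and 3 µM was 253, 194 and 138 in Yamato-SS, 260.3, 129 and 112 in Aska-SS, 206, 119 and 108 in Fuji and 405, 296 and 203 in SYO-1. In each line the signal was highest at 0 µM and lowest at 3 µM, and the 4 lines were close in their log2 change, at -0.87 in Yamato-SS, -1.21 in Aska-SS, -0.93 in Fuji and -0.99 in SYO-1. The mean was -1.0 ± 0.16 (SE), 0.499-fold of the 0 µM level (limma, adjusted p = 5.05e-04). At 0.3 µM the change of -0.66 ± 0.16 (SE) was called (adjusted p = 0.0399), but not without any 1 line (-0.74 to -0.55, adjusted p of 0.0690 without Yamato-SS to 0.199 without Aska-SS). The step from 0.3 to 3 µM was -0.34 ± 0.16 (SE) (adjusted p = 0.204). SYO-1 had the highest level, above Yamato-SS by 0.62 ± 0.19 (SE) log2 units, 1.53-fold, limma adjusted p = 0.0175, and the other 3 lines did not differ from their neighbours beyond their spread (adjusted p = 0.226 and 0.522). The other 3 FGFR4 probe sets were below the filter.

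FGFR2, which is expressed as splice forms that bind different FGFs, had signals (probe set 203638_s_at) of 198, 234 and 228 in Yamato-SS, 448, 678 and 878 in Aska-SS, 319, 466 and 363 in Fuji and 1563, 1766 and 1828 in SYO-1 at 0, 0.3 and 3 µM. The lines did not overlap, except that the 0 µM array of Aska-SS lay below the 0.3 µM array of Fuji. SYO-1 was above Aska-SS by 1.41 ± 0.17 (SE) log2 units, 2.66-fold, limma adjusted p = 1.92e-05, Aska-SS above Fuji by 1.7-fold (adjusted p = 0.00288) and Fuji above Yamato-SS by 1.72-fold (adjusted p = 0.00183). The change at 3 µM was 0.20 in Yamato-SS, 0.97 in Aska-SS, 0.19 in Fuji and 0.23 in SYO-1. The mean of 0.40 ± 0.15 (SE) was called (adjusted p = 0.0477), but without Aska-SS it was 0.21 (adjusted p = 0.303), without SYO-1 0.45 (adjusted p = 0.0950) and without Yamato-SS 0.46 (adjusted p = 0.0628). It was also lost without the filter (adjusted p = 0.115), without the trend (0.0655) and with the arrays of those doses alone (0.113). Probe set 208228_s_at had the same order of lines, with 327, 489 and 599 in Aska-SS at 0, 0.3 and 3 µM, and its change of 0.23 ± 0.17 (SE) was not called (adjusted p = 0.301). On the third FGFR2 probe set tested, 208229_at, a difference among lines was not called (F test, adjusted p = 0.419), the signals were 210.4 to 366, and the change at 3 µM was 0.09 ± 0.20 (SE) (adjusted p = 0.765), with Yamato-SS at -0.64. Another 2 probe sets that missed the filter on their mean were brightest in SYO-1, 203639_s_at with 299.7, 353 and 320.2 in SYO-1 at the 3 doses, 51.8, 111 and 134 in Aska-SS and 4.43 to 15.4 in Yamato-SS and Fuji, and 211401_s_at with 251, 246 and 206 in SYO-1 and 7.47 to 81.4 in the other lines.

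FGFR1 is the FGF receptor of many mesenchymal cells. Its signal (probe set 211535_s_at) at 0, 0.3 and 3 µM was 1348, 1938 and 1913 in Yamato-SS, 1721, 1963 and 2273 in Aska-SS, 1488, 1408 and 1638 in Fuji and 1862, 2422 and 1721 in SYO-1, and the 3 Fuji arrays lay below every Aska-SS and SYO-1 array while the other 3 lines overlapped. No neighbouring lines differed (adjusted p of 0.255 to 0.981), and a difference among the 4 lines was not called on this probe set (F test, adjusted p = 0.0737). It was called on 4 of the other 6 FGFR1 probe sets (adjusted p of 0.0017 to 0.0143). On 226705_at, Fuji had 1929, 1751 and 1332 at 0, 0.3 and 3 µM and Yamato-SS 871, 986 and 1057, so that the line with the lowest mean on the brightest probe set had the highest on this one. On the brightest probe set the change at 3 µM was 0.23 ± 0.13 (SE) (95% interval -0.04 to 0.51, adjusted p = 0.169). All 7 FGFR1 probe sets were tested, and 1 was called at 3 µM, 215404_x_at, at 0.44 ± 0.15 (SE) (adjusted p = 0.0305) with 4 of 4 lines higher. The other 6 had mean changes of -0.09 to 0.62.

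**Figure D3:**
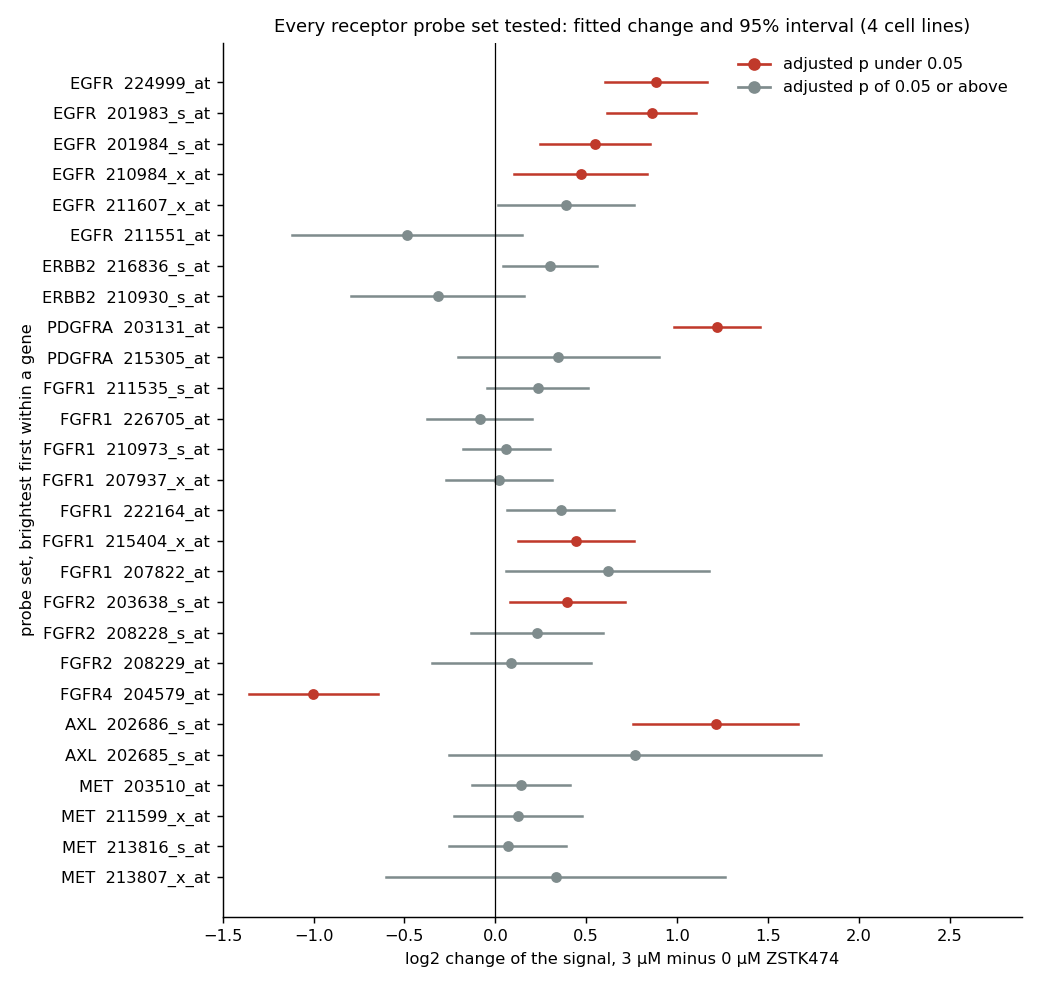
Fitted log2 change of the signal, 3 µM minus 0 µM, with its 95% interval for each of the 27 receptor probe sets tested, grouped by gene with the brightest first. Red marks the 9 probe sets with an adjusted p under 0.05, which are 4 of 6 for EGFR and 1 each for PDGFRA, FGFR1, FGFR2, FGFR4 and AXL.

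MET, the receptor for hepatocyte growth factor (HGF), set Yamato-SS apart. Its signal (probe set 203510_at) at 0, 0.3 and 3 µM was 19006, 19511 and 22566 in Yamato-SS, 1348, 1416 and 1757 in Aska-SS, 601, 529.5 and 447 in Fuji and 660.0, 780.1 and 846 in SYO-1. The lowest Yamato-SS array was far above the highest array of any other line. Yamato-SS was above Aska-SS by 3.76 ± 0.14 (SE) log2 units, 13.6-fold, limma adjusted p = 6.28e-10, Aska-SS was above SYO-1 by 1.97-fold (adjusted p = 1.00e-04), and SYO-1 above Fuji by 1.45-fold (adjusted p = 0.00923). The other 3 MET probe sets had the same line on top, with 2688 to 3874 in Yamato-SS against 122 to 257 in the other lines for 213816_s_at. The log2 change at 3 µM was 0.25 in Yamato-SS, 0.38 in Aska-SS, -0.43 in Fuji and 0.36 in SYO-1. With 3 lines up and Fuji down, the mean of 0.14 ± 0.12 (SE) was not called (95% interval -0.13 to 0.41, adjusted p = 0.399), whereas without Fuji it was 0.33 (adjusted p = 0.0150). The pattern of Fuji against the rest was that of this probe set alone. On 211599_x_at, 213816_s_at and 213807_x_at Aska-SS changed by -0.10, -0.29 and -0.39 at 3 µM. Fuji changed by -0.22, 0.01 and -0.09 on these. None of the 4 MET probe sets was called at any dose.

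Over all members, differences among the 4 cell lines were called for 22 of 27 probe sets and 7 of 8 genes, against 76.3% of the array. Between Aska-SS and SYO-1, 17 of the 27 were called (array 49.2%), between Aska-SS and Yamato-SS 14 (55.7%), between Aska-SS and Fuji 15 (40.8%), between SYO-1 and Yamato-SS 20 (46.4%), between SYO-1 and Fuji 14 (40.8%) and between Yamato-SS and Fuji 16 (52.9%). Probe sets of 1 gene share its transcripts, so these counts do not stand for independent genes. With the filter removed and 54613 probe sets tested, 0 of the 23 dim receptor probe sets were called at 3 µM or at 0.3 µM by limma (3 and 0 had an unadjusted p under 0.05), while 7 differed among the lines. In that fit 16.3% of the whole array was called at 3 µM, 9 probe sets at 0.3 µM, and 41.1% for lines.

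Ligands of these receptors were measured on the same arrays. Of 26 ligand genes listed, 12 were tested at 3 µM, 3 rose and 1 fell, against 39.4% of the array called in either direction. PROS1, which encodes protein S, the second AXL-family ligand, rose by 1.12 ± 0.13 (SE) on the log2 scale (limma, adjusted p = 4.52e-05), with 1090.2, 1785 and 2371 in Yamato-SS, 927, 1403 and 1688 in Aska-SS, 736, 1618 and 2062 in Fuji and 295, 378 and 594 in SYO-1 at 0, 0.3 and 3 µM. It was higher with dose in every line, including SYO-1, where AXL was dim. PDGFC, a ligand of PDGFRA, rose by 0.50 ± 0.15 (SE) (adjusted p = 0.017, 3 of 4 lines). HBEGF, an EGFR ligand, fell by 0.52 (adjusted p = 0.0201, 4 of 4 lines), and was already lower at 0.3 µM (-0.64, adjusted p = 0.0382). MST1, the ligand of the MET relative MST1R, rose by 1.39 ± 0.39 (SE) (adjusted p = 0.0129), on a probe set that may also bind near-identical copies of the gene. EGF, TGFA, AREG, EREG, BTC, NRG1 to NRG4 and FGF1, FGF5, FGF7 and FGF10 were among the ligands not tested, for a dim signal or no probe set of their own.

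Differences among the lines were called for all 12 tested ligands, against 76.3% of the array. HGF, PDGFA and GAS6 are given for their receptors and were picked after their values were seen. HGF was bright in the MET-high line alone, with 1593, 1752 and 2287 in Yamato-SS at 0, 0.3 and 3 µM and 62.0 to 133.4 on the other 9 arrays (F test among lines, adjusted p = 1.79e-08). PDGFA had 38.5 to 132 in Yamato-SS, the line with the most PDGFRA signal, and 1147 to 3009 in the other 3 lines (adjusted p = 4.98e-09). PDGFC was bright in SYO-1 (5511, 6913 and 9542) and Aska-SS (4279, 6048 and 8208), lower in Yamato-SS (1533, 1627 and 1459) and dim in Fuji (25.7, 25.2 and 32.4). GAS6, the main AXL ligand, was present in all lines at 364 to 1757, and its change at 3 µM was 0.08 ± 0.19 (SE) (adjusted p = 0.757).

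**Figure D4:**
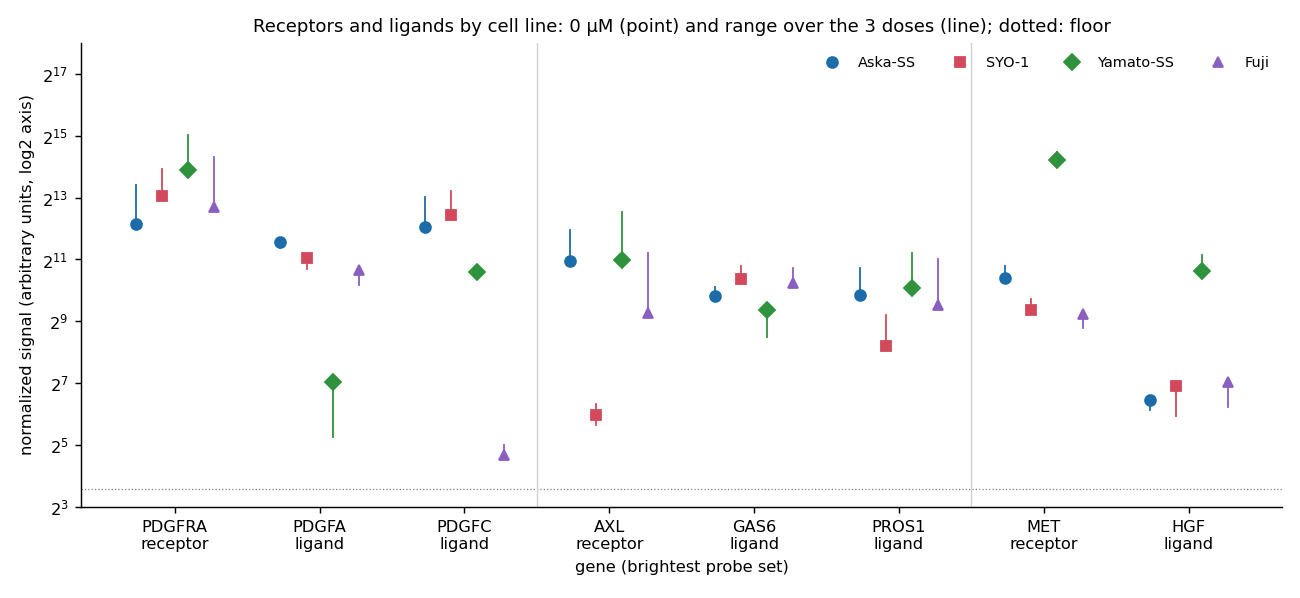
Normalized signal (arbitrary units, log2 axis) of 3 receptors and 5 ligands of their families in each cell line, with the point at 0 µM and the line over the range of the 3 doses. MET and HGF were both high in Yamato-SS only, AXL was low in SYO-1 only, and PDGFA in Yamato-SS and PDGFC in Fuji were low where the other lines were bright.

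Among relatives of the 10 receptors, 5 of 9 were tested, 0 rose and 1 fell at 3 µM, against 19.6% and 19.8% of the array. FGFRL1, an FGF receptor without a kinase domain, fell by 0.52 (adjusted p = 0.014, 4 of 4 lines). MERTK changed by 0.27 ± 0.18 (SE) (adjusted p = 0.264), FGFR3 by 0.11 ± 0.11 (SE) (adjusted p = 0.444) and KIT by 0.27 ± 0.26 (SE) (adjusted p = 0.452). KIT, the stem cell factor receptor, had 3642, 2449 and 2422 in Yamato-SS at 0, 0.3 and 3 µM and 128 to 322 elsewhere.

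Of 12 tested adaptors that carry the receptor signal, 4 rose and 2 fell at 3 µM, against 19.6% and 19.8% of the array. GAB1, a docking protein that binds MET and recruits PI3K, rose by 1.18 ± 0.18 (SE) (limma, adjusted p = 2.89e-04), and the RAS exchange factors SOS2 and SOS1 rose by 0.90 ± 0.11 (SE) (adjusted p = 7.32e-05) and 0.71 ± 0.14 (SE) (adjusted p = 0.00148). PTPN11, which encodes the phosphatase SHP2, fell by 0.34 (adjusted p = 8.71e-04). Each of these 4 moved the same way in all 4 lines. The other 2 called were SHC1, which rose, and GRB2, which fell.

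Of 10 tested genes listed as negative regulators of receptors, 3 rose and 1 fell at 3 µM, against the same shares of the array. LRIG2 rose by 1.4 ± 0.18 (SE) (limma, adjusted p = 1.05e-04) and LRIG3 by 0.62 ± 0.13 (SE) (adjusted p = 0.00269), both membrane proteins of the LRIG1 family. LRIG1, the member that lowers ERBB receptors, changed by 0.15 ± 0.18 (SE) (adjusted p = 0.538). Whether LRIG2 or LRIG3 lowers receptors in these cells was not tested. CBLB, a ubiquitin ligase that marks receptors for degradation, rose by 0.78 ± 0.15 (SE) (adjusted p = 0.00174). PTPN1, which encodes the phosphatase PTP1B, fell by 0.36 (adjusted p = 0.0359). CBLB was bright in Fuji, at 8681, 12796 and 13432 for 0, 0.3 and 3 µM, and dim in SYO-1, at 39.2, 46.2 and 70.6.

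Because ERBB3 and a splice form of FGFR2 are typical of epithelial cells, markers of both states were read on the same arrays. Of 7 epithelial markers 2 were tested and 0 called at 3 µM, against 39.4% of the array. The 2 were KRT18 (-0.37 ± 0.43 (SE), limma adjusted p = 0.525) and KRT7 (-0.0029 ± 0.17 (SE), adjusted p = 0.991). A difference among lines was called for KRT18 (F test, adjusted p = 8.68e-06), with 1093 to 1234 in Aska-SS, 402 to 924 in Fuji and 14.7 to 155 in Yamato-SS and SYO-1. The untested epithelial markers did not share 1 order of lines. CDH1 and EPCAM had 112 to 181 and 71.5 to 131 in Aska-SS, the line highest on the brightest ERBB3 probe set. In the other lines they had 4.17 to 134 and 1.88 to 31.9. KRT8 had 85.3 to 99.8 in Fuji and 44.6 to 102 in Aska-SS. KRT19 was at the floor on 11 arrays, and ESRP1 had 2.69 to 44.7 on all 12. Of 5 mesenchymal markers 3 rose and 0 fell, against 19.6% and 19.8% of the array. FN1 rose by 0.44 ± 0.09 (SE) (limma, adjusted p = 0.00217), TWIST1 by 0.51 ± 0.15 (SE) (adjusted p = 0.0181) and ZEB1 by 0.46 ± 0.15 (SE) (adjusted p = 0.0244), and CDH2 changed by 0.18 ± 0.15 (SE) (adjusted p = 0.347). The ZEB1 signal was 47.2 to 96.7 in Yamato-SS and 2342 to 4656 in the other lines. The part of these markers in the receptor changes was not tested.

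Over the 12 arrays, the genes with the pattern most like each receptor were found by Pearson's r of the log2 signals, as a description of arrays that share 4 lines and 3 doses. For PDGFRA they were KMT2C (r = 0.958), TRIM66 (r = 0.952) and RECK (r = 0.948). For AXL they were SYNE1 (r = 0.991), MAN1A1 (r = 0.987) and ZNF711 (r = 0.987), and for EGFR MOSPD2 (r = 0.969), PHF3 (r = 0.967) and SETD2 (r = 0.962). For FGFR4 they were SLC35A4 (r = 0.966), DOLPP1 (r = 0.963) and SLC19A1 (r = 0.961). The patterns of MET and FGFR2 were most like those of SGCB (r = 0.989), CPT1A (r = 0.988) and CCDC102B (r = 0.987) and of DDX60L (r = 0.982), AXIN2 (r = 0.982) and PRPF8 (r = 0.982). ERBB2 was most like DOCK1 (r = 0.968), BORCS7 (r = 0.957) and ARID5B (r = 0.952), and FGFR1 TPGS2 (r = 0.860), FBXW12 (r = 0.847) and CASTOR3P (r = 0.844).

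Promoter sequence of the 4 genes whose calls at 3 µM held without any 1 line is shown so that the regions upstream of the genes that rose (PDGFRA, AXL and EGFR) and the gene that fell (FGFR4) can be set side by side. Each window runs from 250 bases before an annotated start to 50 after it, 5′ to 3′ along the gene, from RefSeq on GRCh38.p14. Capitals mark GTAAACA, a motif of forkhead factors such as FOXO, or GGGCGG, the GC box bound by SP1, each on either strand and counted with overlaps. Of the 2 windows of each of these genes, the one shown was chosen after the search, as the window with a GC box for PDGFRA, EGFR and FGFR4 and with the forkhead motif for AXL. The windows not shown of PDGFRA, EGFR and FGFR4 held 0 copies of either motif.
PDGFRA, chr4:54233710-54234009, + strand: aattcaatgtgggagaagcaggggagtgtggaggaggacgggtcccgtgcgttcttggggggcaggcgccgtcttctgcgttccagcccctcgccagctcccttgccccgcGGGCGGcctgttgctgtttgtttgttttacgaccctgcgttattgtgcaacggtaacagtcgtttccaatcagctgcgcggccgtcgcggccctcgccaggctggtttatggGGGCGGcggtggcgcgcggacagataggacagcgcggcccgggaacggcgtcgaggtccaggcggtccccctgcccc
AXL, chr19:41226505-41226804, + strand: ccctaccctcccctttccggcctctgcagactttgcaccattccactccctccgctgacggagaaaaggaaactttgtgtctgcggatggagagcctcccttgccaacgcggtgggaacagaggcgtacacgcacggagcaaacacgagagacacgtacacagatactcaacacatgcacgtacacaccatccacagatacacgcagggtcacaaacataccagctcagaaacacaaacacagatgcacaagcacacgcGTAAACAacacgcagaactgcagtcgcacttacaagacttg
EGFR, chr7:55018767-55019066, + strand: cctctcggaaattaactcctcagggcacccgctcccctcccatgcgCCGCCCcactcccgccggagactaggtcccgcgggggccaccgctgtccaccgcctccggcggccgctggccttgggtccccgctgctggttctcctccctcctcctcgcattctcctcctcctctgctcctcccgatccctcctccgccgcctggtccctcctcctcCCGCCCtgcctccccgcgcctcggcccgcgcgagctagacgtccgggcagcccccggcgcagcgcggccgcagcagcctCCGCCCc
FGFR4, chr5:177086665-177086964, + strand: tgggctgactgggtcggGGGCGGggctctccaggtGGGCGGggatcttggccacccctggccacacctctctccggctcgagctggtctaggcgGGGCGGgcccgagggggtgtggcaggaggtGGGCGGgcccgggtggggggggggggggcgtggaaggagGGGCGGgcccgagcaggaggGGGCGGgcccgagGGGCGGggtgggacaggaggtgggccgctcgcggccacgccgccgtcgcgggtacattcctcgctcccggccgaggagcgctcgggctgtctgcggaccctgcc

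RefSeq gave 16 windows for 8 of the 10 genes, and none was found for ERBB3 and FGFR1. GTAAACA was present in 1 of the 16 windows, that of AXL shown, against 3.42% of 35116 windows of the same length for all genes. GGGCGG was present in 8 of the 16, against 45% of all windows. These 8 windows covered 7 of the 8 genes, and the share among all genes was not computed. The EGFR window shown holds 3 copies, that of PDGFRA 2 and that of FGFR4 7. AXL has a second window, at chr19:41218973-41219272, with 2 copies. The FGFR4 window held the most GC boxes of the 16, with 78.7% of its bases G or C. An FGFR2 window with 79.3% G or C held 5. These are matches of letters, and nothing on binding was measured.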

How the data were processed

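Total RNA of the 4 cell lines at 3 doses was labelled and hybridised to 12 one-colour arrays. The deposited values are linear MAS5 intensities, and the authors had scaled each array to a common trimmed mean. The study's methods also name quantile normalization in GeneSpring, but the deposited columns had different distributions and scaling only. The intensities were therefore quantile normalized here, set to the floor of 12.1 where lower, and taken to log2. Control probe sets (62) and those with a mean log2 below 6.03 were left out. Arrays carry no read depth, so that their number limits the precision, and no detection calls were used.

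A model with cell line as a block and dose as a factor was fitted to all 12 arrays over 27306 probe sets with limma 3.58.1 (lmFit and eBayes with a trend, 6 residual degrees of freedom) in R 4.3.3, with Benjamini-Hochberg adjustment over all of them at 0.05. The F test and the pairs of lines came from the same fit and compared means over the 3 doses. Their error was the scatter of single arrays left after line and dose. Intervals are 95%. The block pairs arrays of the same cell line, which the labels name. Deviations from the dose means correlated at 0.79 to 0.91 between arrays of the same line and at -0.42 to -0.10 between lines. Subtracting the mean of the lines at each dose by itself makes correlations between lines negative on average. The figures were drawn with matplotlib 3.10.9.

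Genes were named from the platform annotation (41097 probe sets with 1 symbol, 1801 with several and 11777 with none). All members were described, with the brightest probe set standing for a gene. Of each gene list the up to 4 genes with the smallest adjusted p at 3 µM were named, and of each member the 3 genes with the highest r. Some genes were named beyond that rule, among them HGF, PDGFA, GAS6, SHC1, GRB2, LRIG1 and the untested epithelial markers. The members and lists were chosen with earlier results of these data known. The alternatives changed the normalization, floor, filter, trend, block, summary per gene and arrays used. The GC box search was added after the forkhead search.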

Additional observations from a re-analysis of the deposited data

Results flagged for a closer look

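For each of the 8 tested receptor genes and each difference between doses or level at a dose, the 4 cell lines were searched for a line far from the other 3, by the gap to the nearest line as a share of the whole range. Of 48 such groups of 4 values 2 were picked out, and chance alone picks about 1 in 20. The log2 change of FGFR2 at 3 µM against 0 µM was 0.97 in Aska-SS and 0.19 to 0.23 in the other 3 lines. The log2 change of MET at 3 µM against 0 µM was -0.43 in Fuji, where the remaining lines had 0.25 to 0.38. Each is the difference of 2 single arrays on the brightest probe set of the gene. For MET the other probe sets did not set Fuji apart: on 213816_s_at Fuji had 0.01 and Aska-SS -0.29.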

How the results depend on the processing

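Over 1 array per line and dose, and with no repeated cultures, counts depended on the settings more than directions did. Of 327 results recomputed for single genes, 272 kept their direction and side of the threshold, 40 lost the call, 5 gained one and 10 changed sign. At 3 µM the 9 calls became 5 of 8 genes with 1 probe set per gene (7 of 8 for lines) and 2 of 6 with all probe sets of a gene averaged (PDGFRA 0.59 and AXL 0.99, 0 at 0.3 µM, 0 for the step and 4 for lines). The 2 calls at 0.3 µM and the 3 for the step became 0 and 0 without a filter, and 0 and 0 without the eBayes trend. The filter at the 65th percentile left 1 at 0.3 µM, of 22 receptor probe sets tested, since that of FGFR4 was not among them, while the calls of the whole array at 0.3 µM were 1867 against 1453. At 3 µM the count was 13 without quantile normalization, 11 with the floor at the 40th percentile, and 10 with an offset of 16 or the 65th percentile filter. Arrays of the 2 doses alone gave 4 at 0.3 µM and 6 for the step. Without the cell line block the counts were 0 at 3 µM, 0 at 0.3 µM and 0 for the step. Leaving out 1 line gave 5 to 8 calls at 3 µM (5 without Aska-SS), 0 to 1 at 0.3 µM and 0 to 2 for the step.

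With averaged probe sets, ERBB2 changed sign at 3 µM (-0.35), at 0.3 µM (-0.032) and in the step (-0.31), as did MET at 0.3 µM (-0.0069) and FGFR1 in the step (0.10), none of them called. Leaving out 1 line turned uncalled changes of MET at 0.3 µM (-0.024 to 0.12) and of the steps of ERBB2 (-0.0097 to 0.19), FGFR1 (-0.10 to 0.14) and FGFR2 (-0.12 to 0.13). ERBB2 at 3 µM was called without quantile normalization (0.37, adjusted p = 0.0247) and with the 65th percentile filter (0.30, adjusted p = 0.0496). Over the whole array, the calls at 3 and 0.3 µM were 8887 and 9 without a filter, 10142 and 0 without the trend, and 582 and 0 without the block. The step was called for 976, 1436 and 0 probe sets in those fits. The cause of these changes was not tested.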
